A study of Mus musculus with 6 samples.

Results

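The kainate receptor family of the mouse comprises 5 subunit genes, Grik1 to Grik5, and 2 genes for auxiliary proteins, Neto1 and Neto2. The rows with these 7 gene names were taken from tables of 26554 features, and all 7 were found in every library and had counts enough to be tested. Kainate receptors are glutamate-gated cation channels assembled as tetramers. The subunits encoded by Grik1, Grik2 and Grik3 (GluK1 to GluK3) can form channels by themselves, whereas those encoded by Grik4 and Grik5 (GluK4 and GluK5) bind the agonist with high affinity and need a partner from the first class. Neto1 and Neto2 are single-pass membrane proteins with CUB domains that bind these receptors, slow their gating and alter their synaptic placement; Neto1 was also described as a partner of NMDA receptors. In the thalamus kainate receptors are known at corticothalamic and sensory inputs to relay cells and in reticular neurons.

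The tissue was VPL/VPM, the ventral posterior thalamic nuclei that relay touch and pain from body and face to the cortex, in mice with a model of pain after thalamic stroke. Wild-type C57 mice received 10 nL into the right VPL/VPM, which held either 0.01 U of type IV collagenase, which digests vessel walls and so produces a local bleed, or saline, and tissue was taken 14 days later. There were 3 poly(A) RNA libraries per group, with total counts from 33603076 to 44815451. How many animals went into a library is not given, so p-values measure only the spread between libraries, which may be technical. Age was not given either, and no uninjected tissue was analysed.

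Markers of the labelled tissue were present in every library, and markers of neighbouring regions varied. All 14 thalamic relay markers on a fixed list were tested, and their summed level ran from 3153.4 to 4915.6 CPM (counts scaled to library depth by edgeR's TMM factors) in saline and from 3198.8 to 3809.1 CPM in collagenase libraries. Saline replicate 3 stood apart: its 7 striatal markers summed to 695.1 CPM, against 92.1 and 108 CPM in saline replicates 1 and 2 and 96.6 to 222.4 CPM after collagenase. Neurod6, a transcription factor of hippocampal and cortical excitatory neurons, measured 23.0, 39.8 and 0.176 CPM over saline replicates 1 to 3, against 3.65, 0.538 and 0.570 CPM over collagenase replicates 1 to 3. Values below follow the same order of replicates. The 8 habenular markers summed to 24.2, 34.4 and 176 CPM with saline and 144.5, 72.2 and 215.4 CPM with collagenase. Each member's fold change is therefore also given without saline replicate 3.

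After collagenase, Neto1 fell to 0.363 of its saline level, and none of the other 6 genes passed the test. The test was edgeR's quasi-likelihood test on counts, and a gene passed at a Benjamini-Hochberg adjusted p below 0.05 among 17240 genes. Of these genes 2.41% passed in either direction, 0.29% as lower and 2.12% as higher, against 1 of the 7 family members, which was lower. At an unadjusted p under 0.05 edgeR had 12% of all tested genes, and DESeq2 called 4.72%; by both counts the family again had only Neto1. All 7 log2 fold changes were below 0 in this fit, as were those of 53.4% of all tested genes, but that of Grik3 turned above 0 under total count scaling and in limma on FPKM. Their median was -0.23, and the median over all tested genes was -0.02. In tissue RNA, fewer cells of a type and less RNA per cell cannot be told apart.

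**Figure D1:**
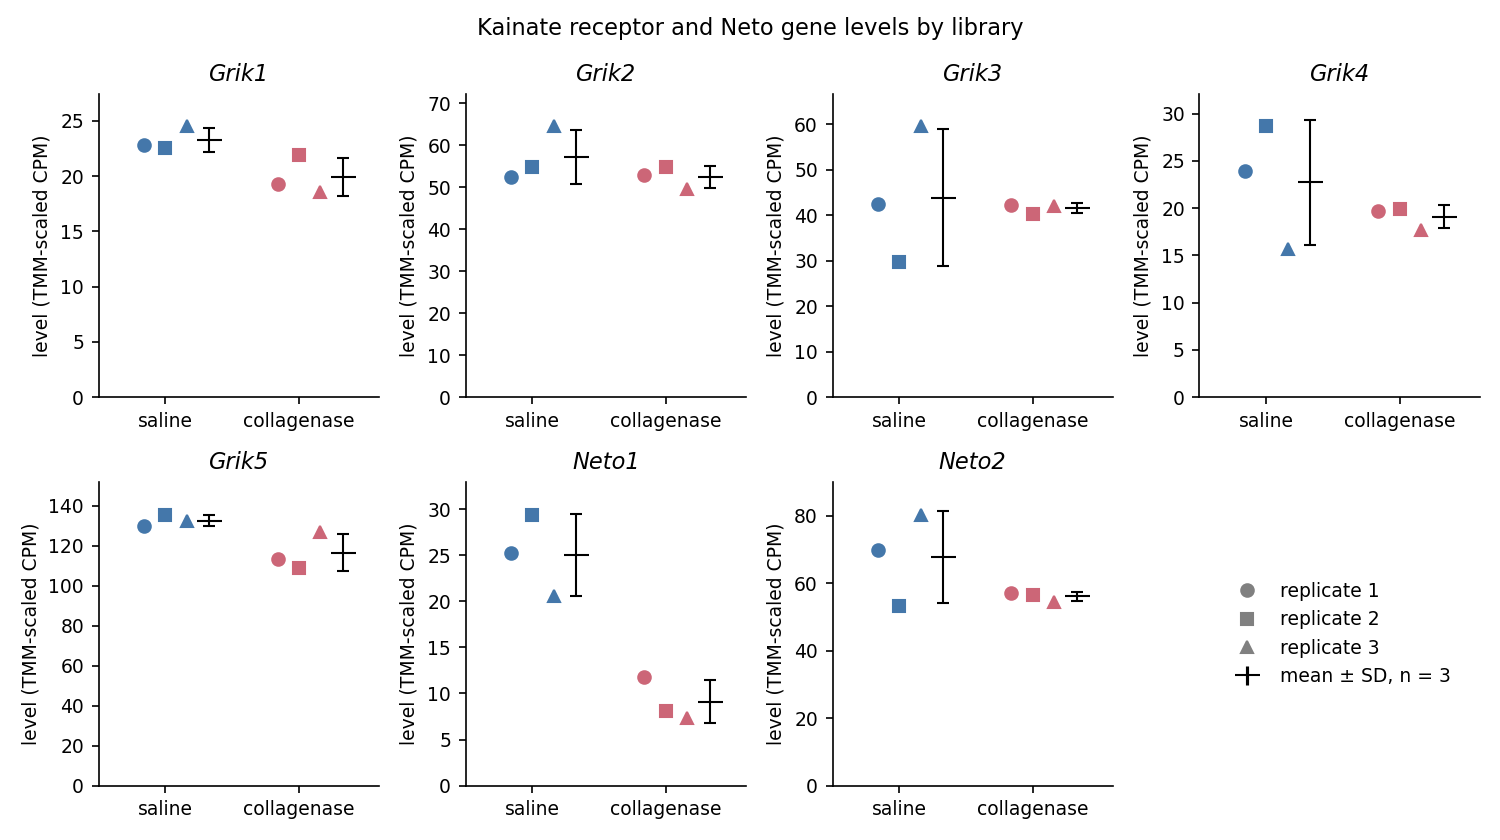
Level of each gene (TMM-scaled CPM, linear axes from 0) in the 3 saline (blue) and 3 collagenase (red) libraries, with symbols for replicates and black bars for mean ± SD. Neto1 lies between 20.6 and 29.4 CPM in saline and between 7.36 and 11.7 CPM after collagenase, while Grik2, Grik3, Grik4 and Neto2 overlap between groups.

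Neto1 (ENSMUSG00000050321) spans 86394952 to 86506718 on the plus strand of chromosome 18 (GRCm38). It had 1118, 1011 and 701 counts in the saline libraries against 559, 303 and 284 after collagenase. Scaled to depth, these were 25.2, 29.4 and 20.6 CPM with saline and 11.7, 8.15 and 7.36 CPM with collagenase. Every collagenase library was below every saline library, and the gap between the closest libraries, saline replicate 3 and collagenase replicate 1, was larger than the SD of either group. The group levels were 25.1 ± 4.43 and 9.08 ± 2.34 CPM (SD, n = 3 per group). The log2 fold change was -1.46 with a standard error (SE) of 0.21, a 95% interval from -1.94 to -0.98 and, by edgeR, an adjusted p of 0.0126. It was the 16th largest fall among the 50 genes called lower.

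The size of the fall was similar in every fit, but its call depended on single libraries. Over 13 alternative fits the log2 fold change ran from -1.69 to -1.10 and the adjusted p from 1.5e-08 to 0.0727, over edgeR, DESeq2 and limma. The call ended without saline replicate 1 (log2 fold change -1.46, edgeR adjusted p 0.0727), without collagenase replicate 2 (-1.39, edgeR adjusted p 0.0634) and without collagenase replicate 3 (-1.33, edgeR adjusted p 0.0597). In these 3 fits 4, 7 and 10 of all tested genes were called lower, against 50 in the fit of all 6 libraries. Without saline replicate 3 the Neto1 call held, at -1.59 with an edgeR adjusted p of 0.00873. That fit called 414 genes lower, against 50. The saline libraries left had Neurod6 at 23.0 and 39.8 CPM, against 0.538 to 3.65 CPM after collagenase. Their habenular sums were 24.2 and 34.4 CPM, against 72.2 to 215.4 CPM. Their striatal sums (92.1 and 108 CPM) overlapped the collagenase range. In that fit the group cannot be told apart from the Neurod6 and habenular differences.

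**Figure D2:**
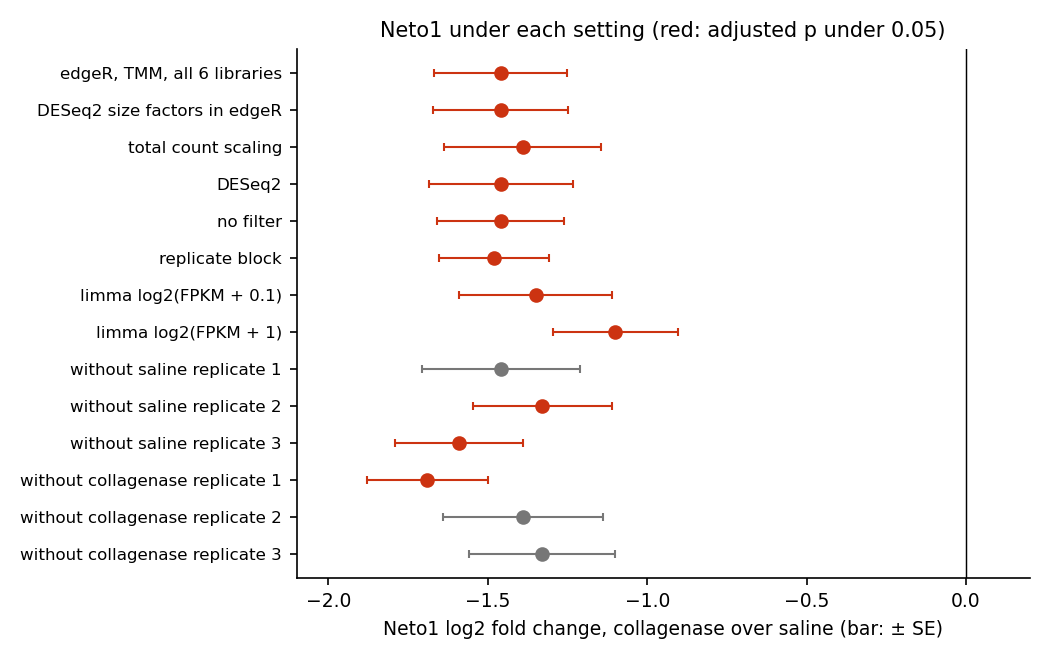
Neto1 log2 fold change of collagenase over saline (x axis; bars are ± SE) in the fit of all 6 libraries and in 13 alternative fits. All estimates lie between -1.69 and -1.10, and the 3 in grey have an adjusted p above 0.05.

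Cell type marker lists were measured in the same libraries. For comparison, edgeR called 0.29% of all tested genes lower and 2.12% higher. An unadjusted p under 0.05 in edgeR was reached by 12%, and DESeq2 called 4.72%. The summed level of 14 GABAergic and reticular markers was 1413.2 to 1687.5 CPM in saline and 1155.4 to 1304.8 CPM after collagenase, with a median log2 fold change of -0.81 and 1 of 14 called lower by edgeR. In that list 9 of 14 had an unadjusted p under 0.05 and DESeq2 called 4, namely Dlx1, Dlx2 and Npy as lower and Ecel1 as higher. The 14 hippocampal and cortical markers summed to 712.2 to 762.6 CPM in saline and 500.9 to 527.8 CPM after collagenase. Their median was -0.67, with 1 of 14 called lower by edgeR and 3 at an unadjusted p under 0.05. DESeq2 called 2, Slc17a7 and Fezf2, both as lower. Slc17a7, a vesicular glutamate transporter described with the release genes, gave 383.4 to 481.2 CPM of the list's sum in saline and 238.1 to 264.3 CPM after collagenase. No marker on these lists was at 0 in all libraries, and Emx1, a cortical transcription factor, was at 0 in saline replicate 3. Other members of that list ran the other way: Bcl11b, a transcription factor of deep cortical and striatal neurons, was highest in saline replicate 3, at 34.6 CPM against 8.86 and 12.1 CPM in saline replicates 1 and 2, and so was Wfs1, at 83.2 against 57.4 and 35.7 CPM. Within saline Neto1 had the order of Neurod6, highest in replicate 2 and lowest in replicate 3. These examples were chosen after their values were seen. The 12 pan-neuronal markers summed to 7589.3 to 9452.2 CPM and 6448.7 to 7736.3 CPM, with a median log2 fold change of -0.18 and 0 of 12 called by edgeR (1 at an unadjusted p under 0.05, 0 by DESeq2). The 14 thalamic relay markers had a median of -0.22, with 0 of 14 called by edgeR and 1 at an unadjusted p under 0.05. DESeq2 called 1 of them, Ramp3, as lower. The 9 oligodendrocyte, 9 oligodendrocyte precursor and 8 endothelial markers had medians of -0.15, -0.02 and 0.11, with 0 called by edgeR. An unadjusted p under 0.05 was reached by 2, 1 and 1 of them, and DESeq2 called 0, 0 and 1 (Ly6c1, as lower). The 10 microglia and macrophage markers summed to 292.9 to 322.4 CPM in saline and 664.1 to 995 CPM after collagenase, with 8 of 10 called higher. The 9 astrocyte markers summed to 3555.1 to 3857.7 and 4321 to 4743.6 CPM, with 2 of 9 called higher. The part of these shifts in the Neto1 result was not tested.

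**Figure D3:**
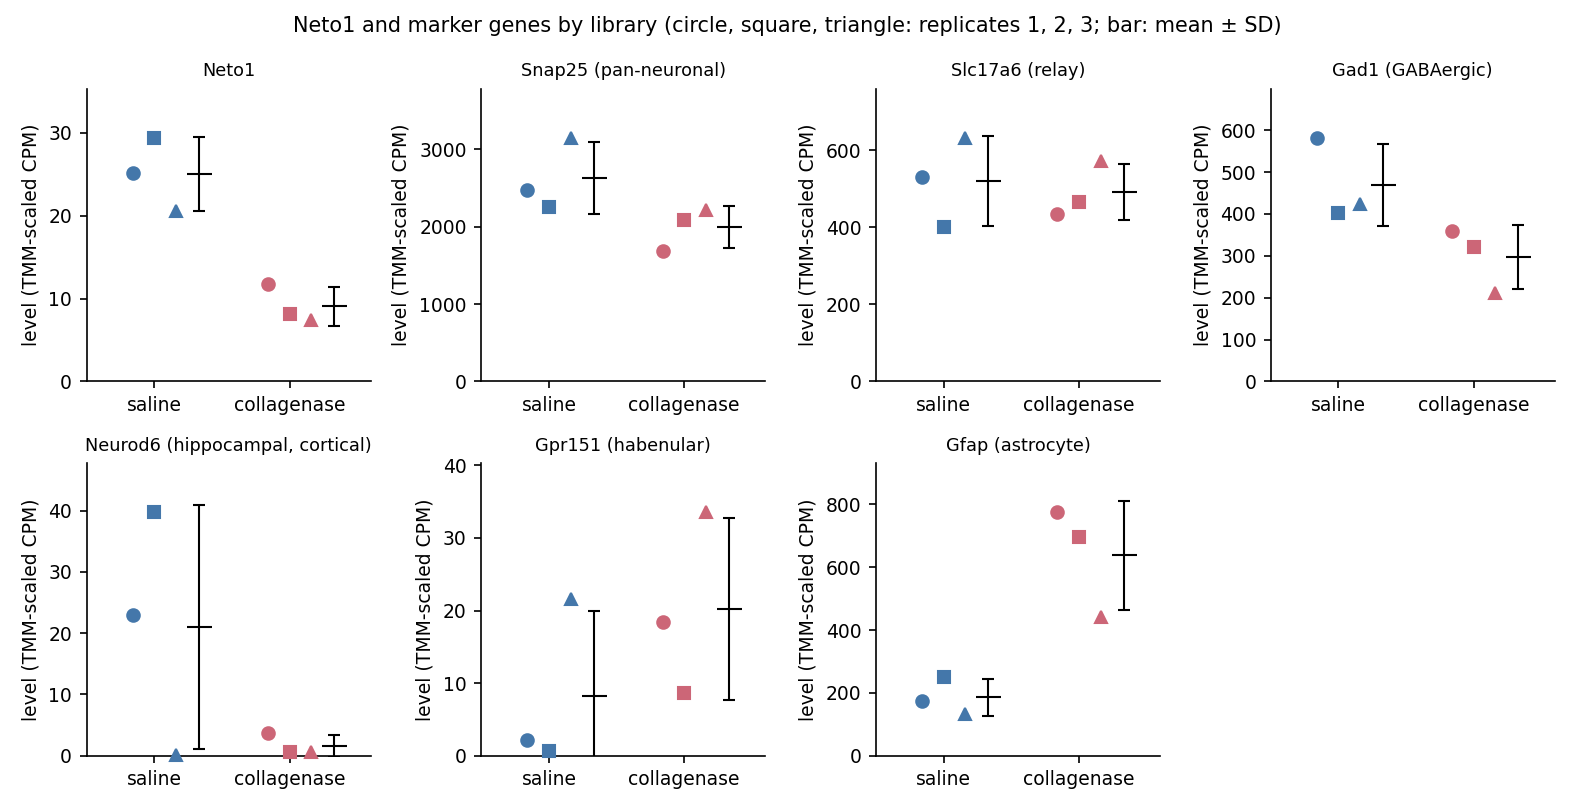
Neto1 and 1 marker from each of 6 cell type lists (y axes, TMM-scaled CPM, linear from 0; bars are mean ± SD cut at 0), in saline (blue) and collagenase (red) libraries; the markers shown were chosen after their values were seen. Neto1, Snap25 and Gad1 separate the groups with collagenase lower, and Gfap with collagenase higher. Slc17a6, Neurod6 and Gpr151 do not separate them. Within saline Neto1 and Neurod6 are both highest in replicate 2 and lowest in replicate 3.

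Neto2 (ENSMUSG00000036902), on the minus strand of chromosome 8 from 85636588 to 85700924, encodes the second auxiliary protein. It measured 69.8, 53.3 and 80.4 CPM with saline and 57.3, 56.6 and 54.6 CPM with collagenase. The groups overlapped, because saline replicate 2 was the lowest of all 6 libraries. Its log2 fold change of -0.27 did not pass (edgeR adjusted p 0.535), and the 95% interval, from -0.61 to 0.06, reaches down to 0.655 of the saline level. It was -0.14 when saline replicate 3 was left out and -0.42 when saline replicate 2 was (edgeR adjusted p 0.129).

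The balance of the auxiliary proteins was compared on FPKM, the deposited level scaled to transcript length and library depth. The log2 ratio of Neto2 to Neto1 FPKM was 0.89, 0.23 and 1.38 with saline and 1.68, 2.24 and 2.29 with collagenase. The ranges did not overlap, and the mean ratio was 2.36 times as high after collagenase. The exact permutation p was 0.1, two-sided, the smallest that 3 against 3 libraries allow, and 0.4 after Benjamini-Hochberg adjustment for the 8 composition values tested. Without saline replicate 3 the log2 difference was 1.51, against 1.24 with it. Summed Neto FPKM was 18.1 ± 0.949 in saline and 12.9 ± 1.30 in collagenase libraries (SD, n = 3 per group). Set against summed Grik FPKM, its log2 ratio was -1.49, -1.68 and -1.51 with saline and -1.84, -1.92 and -2.12 with collagenase, again without overlap (exact permutation p 0.1; adjusted 0.4).

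Grik1, Grik2 and Grik3 encode the subunits that can form channels by themselves. Grik1 (ENSMUSG00000022935; chromosome 16, 87895900 to 88290265, minus strand) measured 22.8, 22.5 and 24.5 CPM with saline and 19.3, 21.9 and 18.6 CPM with collagenase. Its groups did not overlap, yet the log2 fold change of -0.23 (95% interval -0.48 to 0.03) did not pass (edgeR adjusted p 0.488). It was -0.19 without saline replicate 3. Of all tested genes 17.6% had no overlap between groups, 7.5% with collagenase lower and 10.1% with collagenase higher. Among the 7 members Grik1, Grik5 and Neto1 had none, with collagenase lower in each.

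Grik2 (ENSMUSG00000056073; chromosome 10, 49094833 to 49788766, minus strand) encodes GluK2, a subunit whose channel pore is altered by RNA editing. It measured 52.6, 54.8 and 64.6 CPM with saline and 53.0, 54.8 and 49.6 CPM with collagenase, and the groups overlapped. Its log2 fold change was -0.13 (95% interval -0.38 to 0.12; edgeR adjusted p 0.74), and -0.03 without saline replicate 3. Grik3 (ENSMUSG00000001985; chromosome 4, 125490700 to 125714173, plus strand) ranged more widely in saline, at 42.4, 29.6 and 59.6 CPM, than after collagenase, at 42.2, 40.3 and 42.1 CPM. All 3 collagenase values lay inside the saline range. Its log2 fold change of -0.08 (95% interval -0.58 to 0.43; edgeR adjusted p 0.939) became 0.20 without saline replicate 3, -0.30 without saline replicate 2 and 0.02 under total count scaling, so no direction can be given.

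Grik4 and Grik5 encode the high-affinity subunits. Grik4 (ENSMUSG00000032017; chromosome 9, 42518135 to 42944493, minus strand), which in the forebrain is known above all from hippocampal CA3 neurons, measured 23.9, 28.7 and 15.6 CPM with saline and 19.7, 19.9 and 17.7 CPM with collagenase. Saline replicate 3 was the lowest of all 6 libraries and saline replicate 2 the highest, an order that Neurod6 and Neto1 also had within saline. Grik3 had the opposite order in the saline group, and over the 6 libraries the log2 CPM of Grik3 and Grik4 had a Pearson r of -0.88, as a description of libraries that share 2 groups and these tissue differences. The log2 fold change of Grik4 was -0.25 (95% interval -0.72 to 0.22; edgeR adjusted p 0.721), and it ran from -0.46 without saline replicate 3 (edgeR adjusted p 0.0664) to -0.05 without saline replicate 2 (0.958).

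Grik5 (ENSMUSG00000003378; chromosome 7, 25009849 to 25072346, minus strand) was the most abundant member. It measured 129.8, 135.6 and 132.4 CPM with saline and 113.6, 109.0 and 126.9 CPM with collagenase, with no overlap between groups. The log2 fold change of -0.19, the same without saline replicate 3, did not pass (95% interval -0.41 to 0.03; edgeR adjusted p 0.507). For the 5 Grik genes the intervals end between -0.72 and -0.38 on the lower side, which bounds a fall at 0.608 of the saline level (Grik4) to 0.768 (Grik2). Falls up to these sizes therefore lie within the intervals of this fit.

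Compared per length, Grik5 led in both groups, at 32.4 ± 2.13 FPKM in saline and 30.3 ± 2.21 FPKM after collagenase (SD, n = 3 per group), followed by Neto2 at 11.6 ± 1.95 and 10.3 ± 0.598 FPKM. In saline the order went on with Neto1 (6.55 ± 1.5 FPKM), Grik2 (6.47 ± 0.0688), Grik1 (6.22 ± 0.0443), Grik3 (4.43 ± 1.26) and Grik4 (3.92 ± 1.42). The ranges of Neto1 and Grik2, and of Grik3 and Grik4, overlapped there, and the other neighbours did not. After collagenase Grik2 (5.92 ± 0.307 FPKM) and Grik1 (5.71 ± 0.334) overlapped, Grik3 followed at 4.53 ± 0.246, and Neto1 (2.53 ± 0.755) came last, overlapping Grik4 (3.46 ± 0.305). Neto1 thus moved from place 3 of 7 in saline to place 7 after collagenase. The place depends on the length used: with CPM per kilobase of all annotated exons Neto1 was at place 7 in both groups, at 3.00 and 1.09 CPM per kilobase, while Grik5 and Neto2 kept the first places. The order between them also changed. In saline it was Grik3 (4.89 CPM per kilobase), Grik2 (4.33), Grik4 (3.81) and Grik1 (3.46), and it was the same after collagenase. The order of Grik1 to Grik4 by FPKM is therefore not firm.

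**Figure D4:**
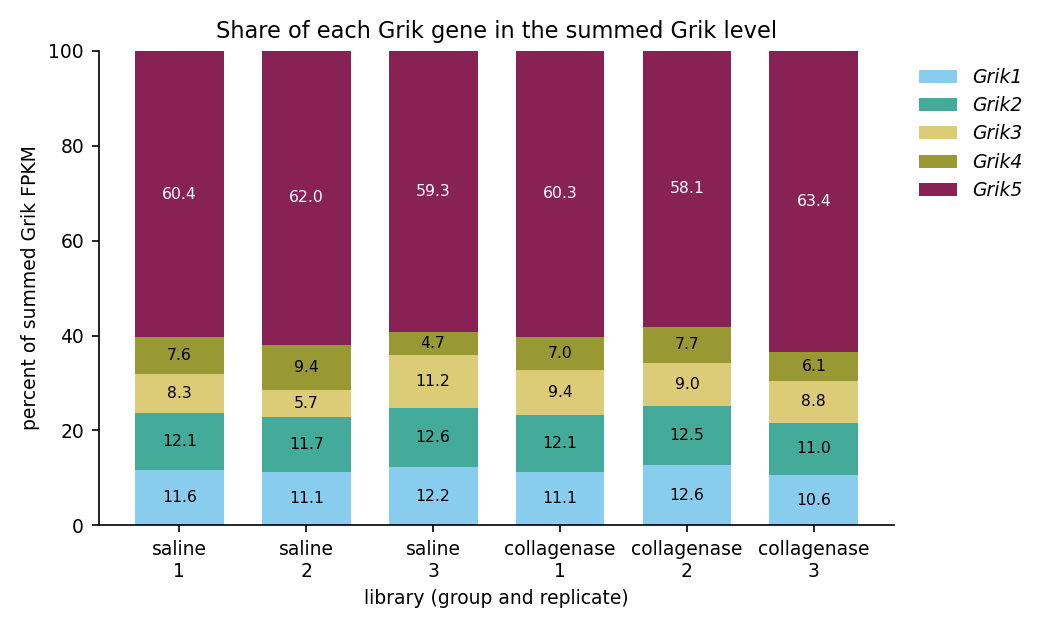
Percent of the summed Grik1 to Grik5 FPKM taken by each gene (stacked bars) in each library. Grik5 takes 58.1 to 63.4% in all 6 libraries, and the shares of Grik3 and Grik4 differ most among the saline libraries.

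The mix of subunits was alike on average between groups, with limits set by the spread. Grik5 took 60.6 ± 1.35% of summed Grik FPKM in saline and 60.6 ± 2.65% in collagenase libraries (SD, n = 3 per group), the largest share in every library. Grik2 took 12.1 ± 0.415 and 11.9 ± 0.780%, and Grik1 11.7 ± 0.538 and 11.5 ± 1.05%. Grik3 took 8.37 ± 2.73 and 9.08 ± 0.298%, with 11.2% in saline replicate 3 and 5.69% in saline replicate 2. Grik4 took 7.26 ± 2.36 and 6.95 ± 0.783%. None of the 5 shares separated the groups (exact permutation p from 0.7 to 1, two-sided). The log2 ratio of Grik4 plus Grik5 to Grik1 plus Grik2 plus Grik3 FPKM was 1.08 ± 0.244 and 1.06 ± 0.124 (SD, n = 3 per group; exact permutation p 0.9).

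The FPKM and count columns were not fully proportional for Grik2. Count, FPKM and library total together imply the transcript length that the authors' tool used, which for Grik2 ran from 8098 bases in saline replicate 1 to 9331 in collagenase replicate 2, a ratio of 1.15. Over the saline libraries the SD of Grik2 was 6.41 CPM about a mean of 57.3 CPM, and 0.0688 FPKM about a mean of 6.47 FPKM. For Neto1 it ran from 3677 to 3777 bases, a ratio of 1.03, equal to the median ratio of 1.03 over 12494 genes with at least 100 counts in each library. GENCODE M21 annotates 11 transcripts for Grik2 and 3 for Neto1. It also places 1 antisense gene across Neto1; no strand-marking step is described, so reads of the opposite strands cannot be told apart.

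Among the other glutamate genes few passed. Of 13 AMPA, NMDA and delta receptor genes 1 fell, 0 rose and 12 did not pass, with a median log2 fold change of -0.23. Gria3, an AMPA receptor subunit, fell from saline levels of 168.8, 157.0 and 166.0 CPM to 109.2, 126.6 and 106.0 CPM (log2 fold change -0.52, SE 0.10, edgeR adjusted p 0.0395). Leaving out saline replicate 1 or 2, or any of the collagenase replicates, ended its call (edgeR adjusted p 0.0642 to 0.188), as did total count scaling (0.106). Grin2a, an NMDA receptor subunit of mature synapses, had a log2 fold change of -0.45 and did not pass (edgeR adjusted p 0.136).

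Of 7 tested metabotropic receptors 0 passed by edgeR or DESeq2, with 3 at an unadjusted p under 0.05 (12% of all tested genes). Grm7, a presynaptic receptor, had a log2 fold change of -0.31 (edgeR adjusted p 0.186) and Grm8, of the same class, 0.38 (edgeR adjusted p 0.273). The median of the list was -0.28. Of 23 tested genes for partners, editing enzymes and trafficking of kainate receptors 0 passed by edgeR and 1 by DESeq2 (4.72% of all tested genes), with 4 at an unadjusted p under 0.05 in edgeR (12%) and a median of -0.12. Nrxn3, a presynaptic neurexin, had a log2 fold change of -0.51 (edgeR adjusted p 0.143) and Dlg3, a scaffold protein, -0.24 (edgeR adjusted p 0.323). The gene that DESeq2 called was Nrxn3, as lower. Adarb1, the enzyme that edits the pore codon of Grik1 and Grik2 transcripts, measured 997.1, 763.0 and 934.6 CPM with saline and 773.5, 908.6 and 691.0 CPM with collagenase (edgeR adjusted p 0.719). C1ql2 and C1ql3, secreted proteins that place kainate receptors at hippocampal mossy fibre synapses, had log2 fold changes of 0.03 and -0.04 and did not pass.

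Of 10 genes for glutamate release and uptake 1 fell, with a median of -0.04. Slc17a7 fell from 463.1, 481.2 and 383.4 CPM to 238.1, 264.3 and 245.2 CPM (log2 fold change -0.83, SE 0.12, edgeR adjusted p 0.0123). Leaving out saline replicate 1 or any of the collagenase replicates ended its call (edgeR adjusted p 0.0546 to 0.0778). Slc17a6, the transporter of relay neurons, had a log2 fold change of -0.08 (edgeR adjusted p 0.919), and Slc1a1, a neuronal glutamate transporter, -0.36 (edgeR adjusted p 0.128). None of the fixed glutamate lists had a member that rose.

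**Figure D5:**
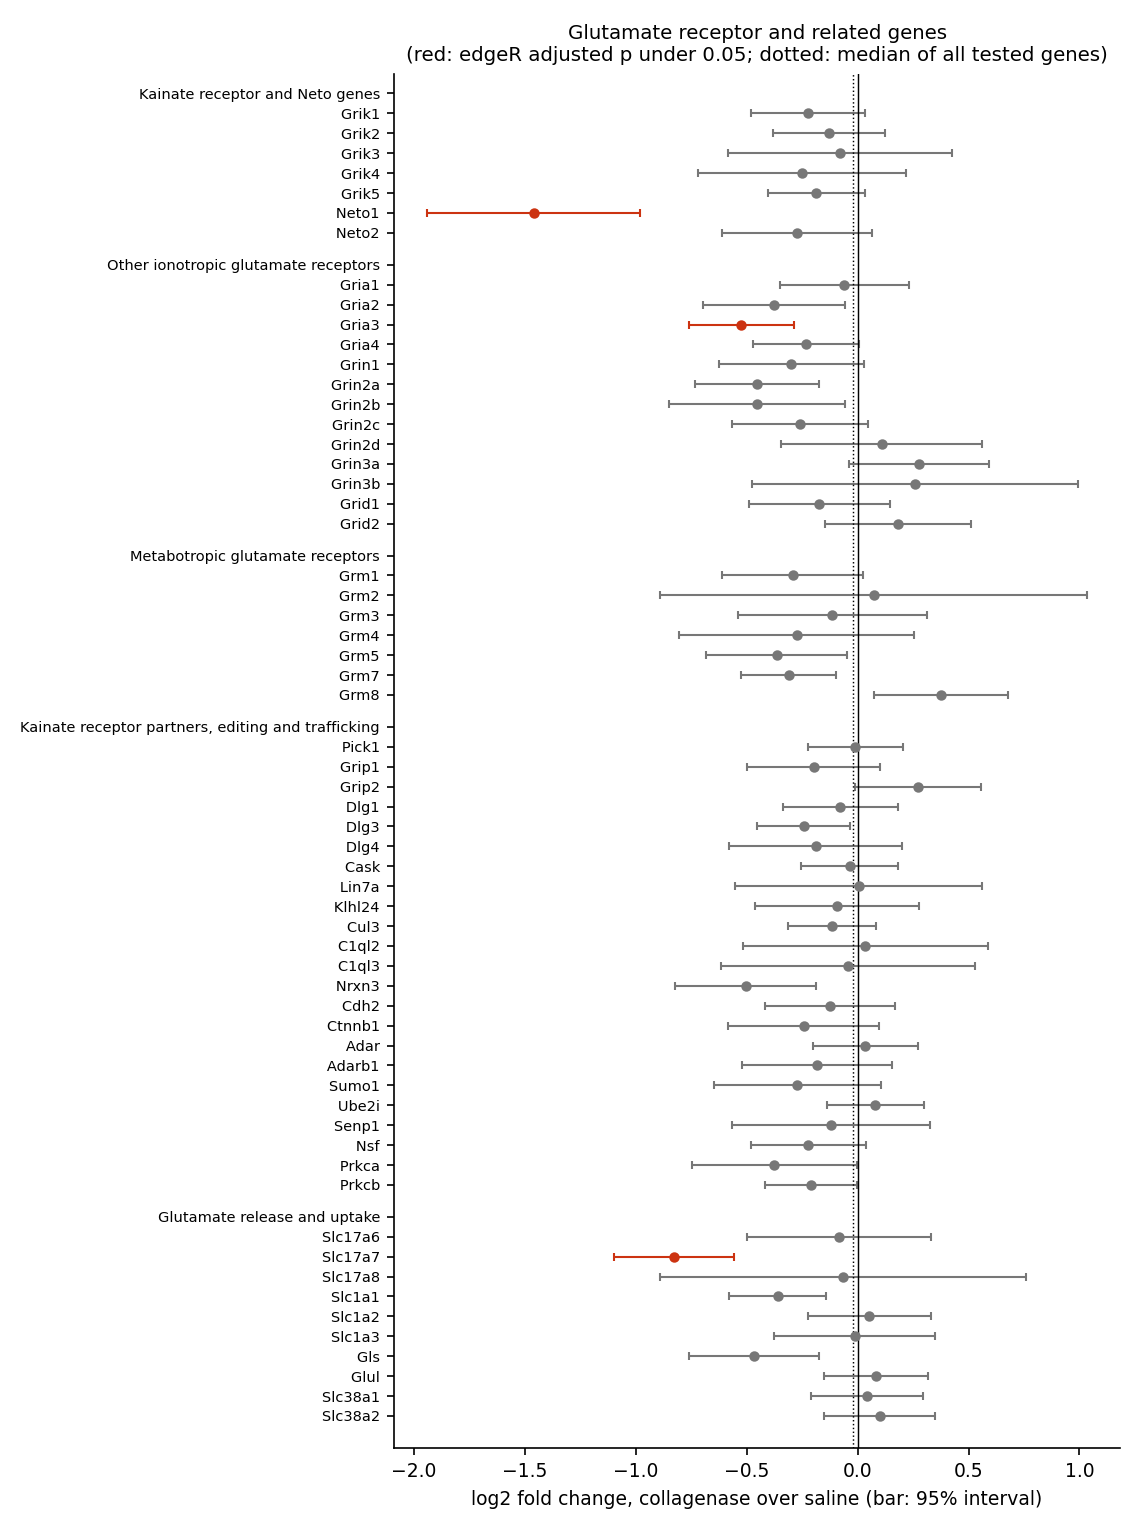
Log2 fold change of collagenase over saline (x axis; bars are 95% intervals) for the 7 family members and 4 fixed lists of glutamate genes, in the edgeR fit of all 6 libraries. Neto1 at -1.46, Slc17a7 at -0.83 and Gria3 at -0.52 are the genes in red, which passed; the dotted line is the median of all tested genes, -0.02.

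Genes whose levels ran most like each member's were taken from all tested genes with a mean log2 CPM of at least 3, by Pearson's r of log2 CPM over the 6 libraries. With so few libraries and so many genes, each member had a gene at an r of at least 0.99, and these values are a description. Gbp7, an interferon-inducible GTPase, was closest to Neto1 (r = 0.9973) and fell as well (log2 fold change -1.42, edgeR adjusted p 0.0167). The next was Rabgap1l (r = 0.9928), which did not pass (log2 fold change -0.20, edgeR adjusted p 0.43). The closest genes to Grik1 to Grik5 and Neto2 were Olig1, Egr1, Kcnma1, Bccip, Emc10 and Tmem230, in that order, and none of these passed. Among the members themselves the highest r was 0.81 (Grik3 and Neto2), and Neto1 and Neto2 had an r of 0.43.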

How the data were processed

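Libraries were made from poly(A) RNA with random priming, per the labels' protocols. GRCm38, HISAT2 2.2.1, StringTie, FastQC and DESeq2 appear in the submitters' processing notes, with no roles. The annotation release, the strand setting and how multi-mapping reads were treated were not given in the sources used here. Each table, per the file headers, holds counts and FPKM that the authors deposited for every feature. Lines of spilled annotation text (10 to 30 per library) were skipped. Symbols were matched by Ensembl identifier (22022 of 22036), and positions came from GENCODE M21.

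Counts were filtered (filterByExpr), scaled by TMM (factors 0.898 to 1.063) and tested with edgeR 4.0.16 (R 4.3.3; robust quasi-likelihood F-test, two-sided) over all genes. FPKM served for levels between genes and for composition, compared by exact permutation (scipy 1.17.1). Alternatives used DESeq2 1.42.0 and limma 3.58.1. For edgeR the SE was derived from the test, as the absolute log2 fold change over the square root of F. The 95% intervals were built from that SE with a t distribution and are approximate. Scripts were tested on simulated data. Named genes are the members, list members that passed or had the 2 smallest p, and the 2 genes most like each member; others named were chosen after their values were seen. Members and lists were chosen with earlier results of these data known. Protein sequences were not used here, 1 marker gene is not reported here, and Klhl17 of the partner list was not used here.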

Additional observations from a re-analysis of the deposited data

How the results depend on the processing

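Of the 91 refits of the 7 members' log2 fold changes (13 alternatives each), 84 kept direction and side of the threshold. Neto1 lost its call in 3 fits without a library (log2 fold change over these 6 fits -1.69 to -1.33), and the count of members called lower ran from 0 to 1. Grik3 turned to 0.02 with total count scaling, 0.07 and 0.05 in limma on log2(FPKM + 0.1) and log2(FPKM + 1), and ran from -0.30 to 0.20 without a library. The count of lower genes among the other ionotropic receptors was 0 with total count scaling, in both limma fits and with the replicate block, 2 in DESeq2, and 0 to 3 without a library. For partners it was 1 in DESeq2 and 0 to 1 without a library; for release and uptake it was 3 in DESeq2, 0 in both limma fits and 0 to 2 without a library. All genes called lower ran from 4 without saline replicate 1 to 414 without saline replicate 3.

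The subunit shares had no stable direction. With CPM per kilobase of exons the change of the Grik2 share became 0.387 and that of Grik5 -0.519 percentage points. Without a library the changes ran from -0.785 to 0.225 (Grik1), -0.55 to 0.201 (Grik2), -0.62 to 2.11 (Grik3), -1.57 to 0.772 (Grik4) and -1.37 to 1.26 (Grik5) percentage points, and the log2 ratio of Grik4 plus Grik5 to the rest from -0.146 to 0.0977. The log2 ratio of Neto2 to Neto1 kept its sign in all 8 alternatives. The cause of these changes was not tested.

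Replicate numbers did not pair the libraries: deviations of same-numbered libraries correlated at 0.04, 0.11 and 0.20, of which the first is under the 0.1 asked of every pair. Saline replicates 2 and 3 correlated best with their own number, and saline replicate 1 with collagenase replicate 2 (0.08). With the number as a block Neto1 had a log2 fold change of -1.48 (edgeR adjusted p 0.0138) and Gria3 lost its call. Each of the 7 genes had at least 284 counts in each library. Without saline replicate 3 the SE of Grik3 went from 0.22 to 0.145 and that of Grik4 from 0.204 to 0.118, although fewer libraries entered.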

Other observations

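The auxiliary subunits of AMPA receptors, the other channel partners of this kind, were listed after the values of the Neto genes had been seen. Of 12 tested genes 0 passed edgeR, with 4 at an unadjusted p under 0.05 (12% of all tested genes), and DESeq2 called 3, Cnih2, Cnih3 and Shisa6 (4.72% of all tested genes); the median log2 fold change was -0.32, and values ran from -0.60 to -0.11. Cnih3, a cornichon protein that slows AMPA receptors, was nearest to the threshold, at 62.9 ± 9.32 CPM in saline and 41.4 ± 2.44 CPM after collagenase (SD, n = 3 per group), with an edgeR adjusted p of 0.054. Cnih2, Shisa6 and Cacng5 had log2 fold changes of -0.53, -0.49 and -0.35. With Cnih3 they made 4 of 12 genes without overlap between groups, with collagenase lower in each. Among all tested genes 17.6% had no overlap, 7.5% with collagenase lower. None of the 12 log2 fold changes reached that of Neto1; these differences between genes were not tested.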
